A study of Mus musculus with 4 samples.

Results

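Foxp3 and 7 further genes known from CD4 regulatory T cells (Treg cells) were followed in CD8 T cells: Nrp1, Swap70, Capg, Izumo1r, Lrrc32, Gpr83 and Itgb8. They were chosen by name, as every probe set whose platform gene symbol was one of the 8. This gave 13 probe sets of 7 genes, out of 18193 genes measured on the arrays, and Lrrc32 had no probe set under its symbol. RNA was measured on 4 Affymetrix mouse arrays, 2 for each of 2 groups of spleen CD8 T cells of B6 mice, all wild-type. Cells of the Ly49+ group (CD44+CD122+Ly49+) are named CD8+ Treg in the labels, and cells of the Ly49- group (CD44+CD122+Ly49-) a conventional memory type. Ly49 receptors bind MHC class I and are best known from NK cells. All 4 arrays therefore came from wild-type cells that carry CD44, a marker of antigen-experienced T cells, and CD122, the beta chain of the interleukin-2 receptor. The labels give no age, and do not say whether animals were pooled or whether the replicates came from separate animals, so each p-value rests on a spread between arrays that may be technical.

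Foxp3 is the forkhead transcription factor that defines CD4 Treg cells and keeps their suppressive program in place. Nrp1 encodes neuropilin-1, a co-receptor for semaphorins and VEGF that marks thymus-derived Treg cells in mice, and Izumo1r (also called Folr4) encodes a folate receptor family protein on their surface. Lrrc32 encodes GARP, which holds latent TGF-beta on the cell surface, and Itgb8 encodes the integrin chain that, paired with the alpha-v chain, frees TGF-beta from its latent complex. Gpr83 encodes a G protein-coupled receptor, Swap70 a signalling protein that acts on Rac and the actin skeleton and is best known from B cells, and Capg an actin-capping protein of the gelsolin family. The comparison asks which of these genes differ between Ly49+ and Ly49- CD8 cells. No CD4 Treg cells were measured, so it cannot show which genes are shared with them.

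Of the 7 measured genes, Swap70 was higher in Ly49+ cells, Nrp1 and Capg were lower, and Foxp3, Izumo1r, Gpr83 and Itgb8 did not pass the test. Foxp3 was dim in both groups and read lower, not higher, on the Ly49+ arrays. Differences were tested with limma on log2(intensity + 16), with the brightest probe set of each gene and Benjamini-Hochberg adjustment over all 18193 genes at a threshold of 0.05. Because of the added 16, fold changes of dim genes are understated. Of these genes 3 of 7 passed, where 4.0% of all genes passed in either direction, 1.93% higher and 2.07% lower. The same shares apply to the counts of other gene lists further on. An unadjusted p under 0.05 was found for 4 of the 7 and for 18.1% of all genes. The median log2 fold change was -0.04 over the 7 genes and -0.04 over all genes. In bulk RNA, fewer cells of a type and less RNA per cell cannot be told apart.

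The promoters of Foxp3 and of the 3 genes that passed are shown, each ahead of 1 annotated start. Foxp3 is a forkhead protein and acts with RUNX factors, so both motifs were searched. Each is the 250 bases before the transcription start in the RefSeq table of mouse promoters (build GRCm38.p6, plus strand, 5′ to 3′). That table held 1 or more starts for all 7 measured genes, and for Foxp3 the first of its 2 starts is shown. The Capg and Nrp1 windows lie inside the gene spans given further on, so they precede an internal start and not the first base of the span. The capitals are matches, on either strand, to the forkhead motif GTAAACA, the RUNX motif TGTGGT or the TATA motif TATAAA.
Foxp3 chrX:7579426-7579675: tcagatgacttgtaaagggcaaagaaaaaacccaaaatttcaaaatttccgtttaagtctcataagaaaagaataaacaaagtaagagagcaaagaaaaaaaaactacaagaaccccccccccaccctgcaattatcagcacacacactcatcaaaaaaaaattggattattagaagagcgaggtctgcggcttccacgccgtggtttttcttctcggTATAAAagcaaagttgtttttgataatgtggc
Nrp1 chr8:128358823-128359072: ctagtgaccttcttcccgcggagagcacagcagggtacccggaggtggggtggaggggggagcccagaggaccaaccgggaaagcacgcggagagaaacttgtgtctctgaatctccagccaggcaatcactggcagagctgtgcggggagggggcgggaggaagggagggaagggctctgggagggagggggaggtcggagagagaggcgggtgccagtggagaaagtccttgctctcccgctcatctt
Swap70 chr7:110221453-110221702: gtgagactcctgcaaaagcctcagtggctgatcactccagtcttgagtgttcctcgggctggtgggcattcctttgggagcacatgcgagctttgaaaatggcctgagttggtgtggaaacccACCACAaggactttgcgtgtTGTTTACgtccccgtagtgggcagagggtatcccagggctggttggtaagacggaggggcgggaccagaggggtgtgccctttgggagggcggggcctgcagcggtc
Capg chr6:72549397-72549646: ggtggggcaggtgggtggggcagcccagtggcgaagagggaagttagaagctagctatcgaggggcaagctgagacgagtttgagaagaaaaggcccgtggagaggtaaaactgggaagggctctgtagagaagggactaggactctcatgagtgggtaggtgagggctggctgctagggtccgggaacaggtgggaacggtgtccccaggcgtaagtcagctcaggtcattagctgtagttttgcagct
The Foxp3 window held 1 TATA match, whose first base lay 32 bases before the start. The Swap70 window held a RUNX match on the minus strand, 127 bases before the start, and a forkhead match on the minus strand, 107 bases before it, with no overlap between them. The Nrp1 and Capg windows held none of these letters, and of the windows not shown that of Izumo1r held 1 RUNX match. Of all 32851 promoter windows of that length, 3.17% held the forkhead letters, 14.0% the RUNX letters and 12.4% the TATA letters. A match of letters is a description of the window and not a binding site.

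The 4 arrays had nearly the same distribution of intensities, with medians between 188 and 190.4. The highest of 27 bacterial control probe sets without added target read between 60.5 and 70.3, and is used here as the level of signal without target. A second yardstick was a list of 25 genes of liver, pancreas, pituitary, heart and other non-lymphoid tissues, whose 43 probe sets had a 95th percentile between 171 and 188. On the Ly49- replicate 1 array an older probe set of the spiked control BioB read 702, against 2750 to 3084 on the other arrays, while a newer probe set of the same control read 2833 to 3111 on all 4. As for the labelled cell type, the 9 measured T-cell markers were above the bacterial control on all arrays and none differed past the threshold, and neither did the sort genes Cd8a, Cd8b1, Cd44 and Il2rb. Of the defining CD4 T-cell genes, Cd4 read 133 and 148 in Ly49+ cells, against 147 and 140.2 in Ly49- cells. Zbtb7b read 106 and 129 in Ly49+ cells, against 122 and 128 in Ly49- cells. Both lay above the bacterial control and below the 95th percentile of the non-lymphoid tissue probe sets on all 4 arrays. Cd40lg lay below the bacterial control on all 4 arrays.

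**Figure D1:**
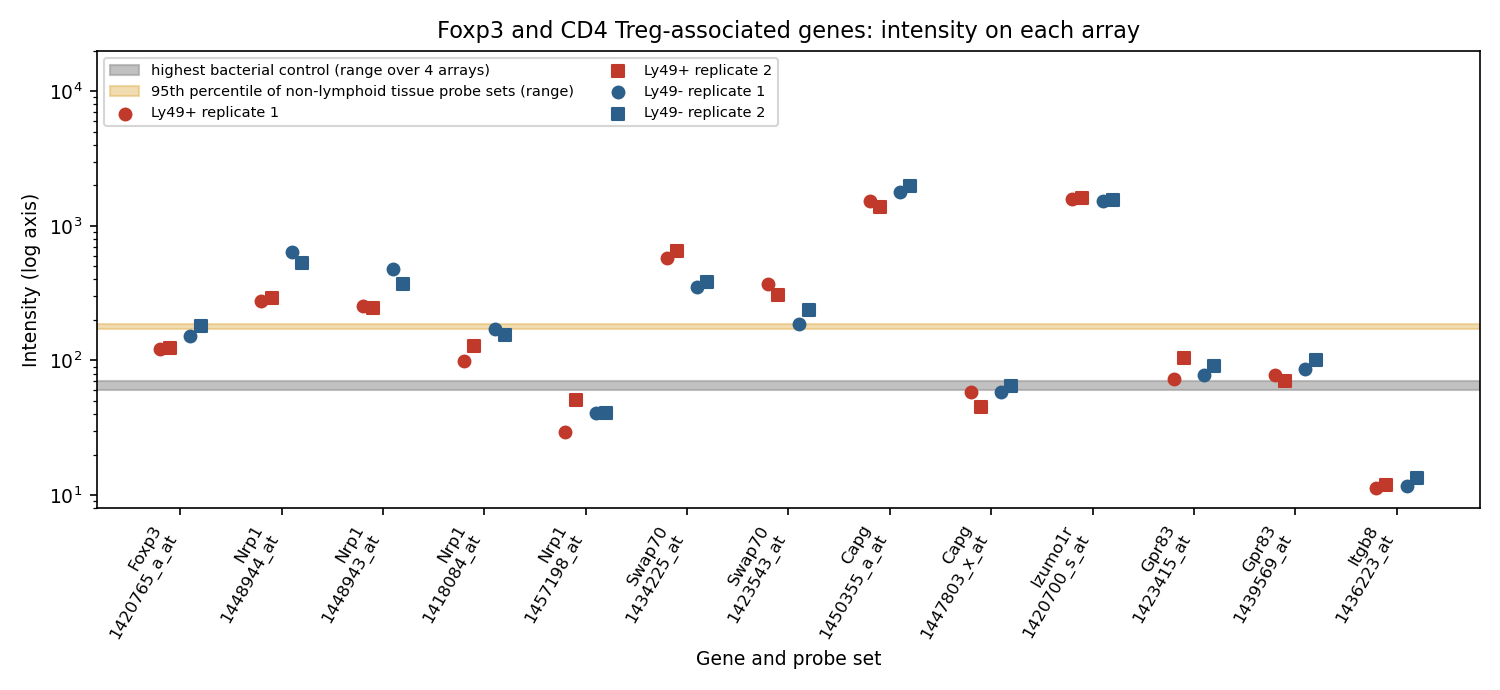
Intensity (log axis) of each of the 13 probe sets on the 2 Ly49+ arrays (red) and the 2 Ly49- arrays (blue), with circles for replicate 1 and squares for replicate 2. The grey band spans the highest bacterial control (60.5 to 70.3) and the yellow band the 95th percentile of non-lymphoid tissue probe sets (171 to 188) over the arrays; Foxp3 lies between the bands on the Ly49+ arrays, and Itgb8 far below both.

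Foxp3 (chromosome X, 7579676 to 7595243, GRCm38.p6) was read by 1 probe set, 1420765_a_at. Its intensity was 123 and 123 in Ly49+ cells, against 151 and 179 in Ly49- cells. The groups did not overlap, where 31.6% of all probe sets were lower without overlap, and the Ly49+ arrays agreed within 1 unit of intensity. These values were 1.91 and 2.03 times the highest bacterial control of the same array in Ly49+ cells, against 2.15 and 2.69 times in Ly49- cells. They lay below the 95th percentile of the non-lymphoid tissue probe sets on all 4 arrays, where 7 and 6 of the 43 such probe sets were brighter than Foxp3 on the Ly49+ arrays, and 5 and 4 on the Ly49- arrays. On all 4 arrays Foxp3 thus lay within the range of probe sets for genes of other tissues. The log2 fold change was -0.38 ± 0.12 (SE), with an unadjusted 95% interval from -0.65 to -0.10 and a limma adjusted p of 0.136 (unadjusted 0.0122). Over 14 alternative settings the adjusted p ran from 0.0720 to 0.435, and the sign was negative in each.

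By the centred log2 values over the 4 arrays, the genes with the profile most like that of Foxp3 were Ndc80, Actg2 and Syne3, with root mean square differences of 0.017, 0.021 and 0.021 among 12486 genes above the bacterial control on all arrays. With 4 arrays this likeness is a description only. Ndc80, a kinetochore gene, had a log2 fold change of -0.38 (limma adjusted p = 0.0708). Actg2, a smooth-muscle actin, had -0.42 (0.102) and Syne3, a nuclear envelope protein, -0.42 (0.0940).

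The other forkhead genes of the P family were measured as well. Foxp1, which keeps naive T cells quiescent, differed by 0.12 on the log2 scale (limma adjusted p = 0.262) and Foxp4 by -0.15 (0.356). Foxp2 lay below the bacterial control on all arrays. Among 27 measured regulators and partners of Foxp3, 2 were lower and none was higher, where 2.07% of all genes were lower and 1.93% higher. The median log2 fold change of the 27 was -0.07. The 2 were Uhrf1, which maintains DNA methylation, and Ezh2, the methyltransferase of Polycomb complexes. Uhrf1 read 5636 and 5674 in Ly49+ cells, against 6671 and 6369 in Ly49- cells (log2 fold change -0.20, limma adjusted p = 0.0407). Ezh2 read 3218 and 3052 in Ly49+ cells, against 3878 and 3619 in Ly49- cells (-0.26, adjusted p = 0.0440). Both calls were lost with any 1 array dropped, where the adjusted p was at least 0.109 for Uhrf1 and 0.120 for Ezh2, and with no trend of the spread (0.196 and 0.164), quantile normalization (0.0555 and 0.0711) or the mean of probe sets (0.109 and 0.0540). The next smallest p-values belonged to Cnot3, of the complex that shortens mRNA tails, with a log2 fold change of 0.20 (adjusted p = 0.150), and Foxo1, a forkhead factor that drives Foxp3 transcription in CD4 cells, with -0.11 (0.211). Of 4 genes known to be repressed by Foxp3, none passed. Il2, the growth factor that Treg cells do not make, differed by -0.28 (adjusted p = 0.267), and Satb1, Pde3b and Ptpn22 differed by 0.08, -0.03 and -0.02. Il2 was dim, at 85.8 and 70.5 in Ly49+ cells, against 92.4 and 104 in Ly49- cells. The highest bacterial control read 60.5 to 70.3, so the direction of Il2 carries little weight.

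Nrp1 (chromosome 8, 128358591 to 128505476) was lower in Ly49+ cells. Its brightest probe set, 1448944_at, read 276 and 293 in Ly49+ cells, against 639.6 and 533 in Ly49- cells. Both Ly49+ values were far below the lower Ly49- value. The mean was 284 ± 12.3 in Ly49+ cells and 586 ± 75.1 in Ly49- cells (SD, n = 2 each), a log2 fold change of -0.9997 ± 0.11 (SE, limma adjusted p = 0.00254). Neuropilin-1 RNA was above the highest bacterial control in both groups, 4.29 and 4.84 times in Ly49+ cells, against 9.10 and 8.02 times in Ly49- cells. Of the 43 non-lymphoid tissue probe sets, 2 and 1 were brighter on the Ly49+ arrays, and 0 on either Ly49- array.

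The other Nrp1 probe sets bear on how far the fall holds across the transcript. Probe set 1448943_at read 253 and 247 in Ly49+ cells, against 480.5 and 368 in Ly49- cells (log2 fold change -0.72, limma adjusted p = 0.0447 in a fit of all 34945 probe sets). That call was lost with any 1 array dropped (adjusted p from 0.0611 to 0.227), with a pseudocount of 64 (0.0642) and with no trend (0.0918). Probe set 1418084_at read 98.5 and 127 in Ly49+ cells, against 169.9 and 155 in Ly49- cells (-0.48, adjusted p = 0.152). It lay below the 95th percentile of the non-lymphoid tissue probe sets on all arrays. In these 3 probe sets every Ly49+ value lay below every Ly49- value, as in 31.6% of all probe sets. The fourth, 1457198_at, read 29.2 and 50.6 in Ly49+ cells, against 40.8 and 40.6 in Ly49- cells, below the bacterial control on all arrays, so it gives no size. The call on Nrp1 was lost without Ly49- replicate 1 (log2 fold change -0.87, limma adjusted p = 0.0521), and the log2 fold change was -0.56 with the mean of its 4 probe sets (adjusted p = 0.0483).

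The genes whose profile over the arrays was most like that of Nrp1 were Zbtb32, Cd200 and Bmpr1a, with root mean square differences of 0.035, 0.045 and 0.057. Zbtb32, a BTB zinc finger repressor, had a log2 fold change of -0.9992, Cd200, an immunoglobulin-family surface protein, of -0.95 and Bmpr1a, a BMP receptor, of -0.98 (limma adjusted p of 0.00289, 0.00239 and 0.00116). With Ly49- replicate 1 dropped the adjusted p was 0.0610, 0.0536 and 0.113, where Bmpr1a stood at -0.64, and with Ly49- replicate 2 dropped it was 0.0503 for Zbtb32. Averaged over probe sets, Zbtb32 stood at -0.55 and Bmpr1a at -0.54 (adjusted p of 0.0187 and 0.0200). Nrp2, the relative of Nrp1, moved the other way. It read 3117 and 3299 in Ly49+ cells, against 2208 and 2205 in Ly49- cells (log2 fold change 0.54, adjusted p = 0.00166). Of 13 measured neuropilin ligands and co-receptors, Nrp2 was the 1 that passed, and the median of the list was 0.00. The Nrp2 call rests on its brightest probe set, and a mean over all Nrp2 probe sets gave a log2 fold change of 0.11 (limma adjusted p = 0.589). The next smallest p-values were those of Gipc1, an adaptor that binds the neuropilin tail (log2 fold change -0.13, adjusted p = 0.325), the VEGF receptor Flt1 (0.18, 0.419) and the semaphorin receptor Plxna1 (-0.17, 0.439).

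Capg (chromosome 6, 72538282 to 72562983) was lower in Ly49+ cells by a smaller margin. Probe set 1450355_a_at read 1523 and 1391 in Ly49+ cells, against 1785 and 1969 in Ly49- cells. The groups did not overlap, where 31.6% of all probe sets were lower without overlap. The mean was 1457 ± 93.5 in Ly49+ cells and 1877 ± 130 in Ly49- cells (SD, n = 2 each). The fall was 1.29-fold (log2 fold change -0.36 ± 0.08 SE, limma adjusted p = 0.0354). Capg was 23.0 to 29.6 times the bacterial control over the 4 arrays. Its second probe set, 1447803_x_at, read 58.5 and 45.1 in Ly49+ cells, against 58.6 and 64.3 in Ly49- cells, below the bacterial control on all arrays.

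The Capg call was the weakest of the 3. It was lost without any 1 array, with a limma adjusted p of 0.0889 when Ly49+ replicate 1 was dropped, 0.248 when Ly49+ replicate 2 was dropped, 0.0964 when Ly49- replicate 1 was dropped and 0.247 when Ly49- replicate 2 was dropped. It was also lost with quantile normalization (0.0542), with no trend of the spread on the level (0.119), with the mean of both probe sets (0.195) and in the fit of all probe sets (0.0683). The log2 fold change lay between -0.43 and -0.28 in these settings. Gelsolin itself, Gsn, a filament-severing relative of Capg, was lower too: 804 and 804 in Ly49+ cells, against 1088 and 1066 in Ly49- cells (log2 fold change -0.41, adjusted p = 0.0182, from a probe set open to other transcripts). The Gsn call was lost with any 1 array dropped (adjusted p of at least 0.119) and with the mean of probe sets (0.0635). The genes with profiles most like that of Capg were Rai14, an actin-binding protein, Cdk1, the mitotic kinase, and Clpb, a mitochondrial chaperone, with root mean square differences of 0.014, 0.016 and 0.021. Their log2 fold changes were -0.38, -0.39 and -0.35, and Cdk1 passed the test (limma adjusted p = 0.0311) while Rai14 and Clpb had adjusted p of 0.124 and 0.0593. Cdk1 was lost with any 1 array dropped (at least 0.0916), with quantile normalization (0.0532) and with no trend (0.0943).

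Swap70 (chromosome 7, 110221703 to 110283506) was the 1 gene of the 7 that was higher in Ly49+ cells. Probe set 1434225_at read 579.6 and 648 in Ly49+ cells, against 354 and 382 in Ly49- cells. Both Ly49+ values exceeded both Ly49- values, and the mean was 614 ± 48.1 in Ly49+ cells and 368 ± 19.8 in Ly49- cells (SD, n = 2 each). The rise was 1.64-fold (log2 fold change 0.71 ± 0.10 SE, limma adjusted p = 0.00647). The second probe set, 1423543_at, read 369.6 and 304 in Ly49+ cells, against 187 and 238 in Ly49- cells (log2 fold change 0.63, adjusted p = 0.0877 in the fit of all probe sets). Its groups did not overlap either, where 46.6% of all probe sets had no overlap in either direction. In the fit of genes the Swap70 call was lost when Ly49+ replicate 2 was dropped (adjusted p = 0.0674), and with either Ly49- array dropped (0.0828 for replicate 1 and 0.0728 for replicate 2). In the fit of all probe sets, where 1434225_at had an adjusted p of 0.0154, it was lost with any 1 array dropped (0.0682 to 0.137). Def6, the close relative of Swap70 in T cells, differed by -0.07 (adjusted p = 0.506).

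**Figure D2:**
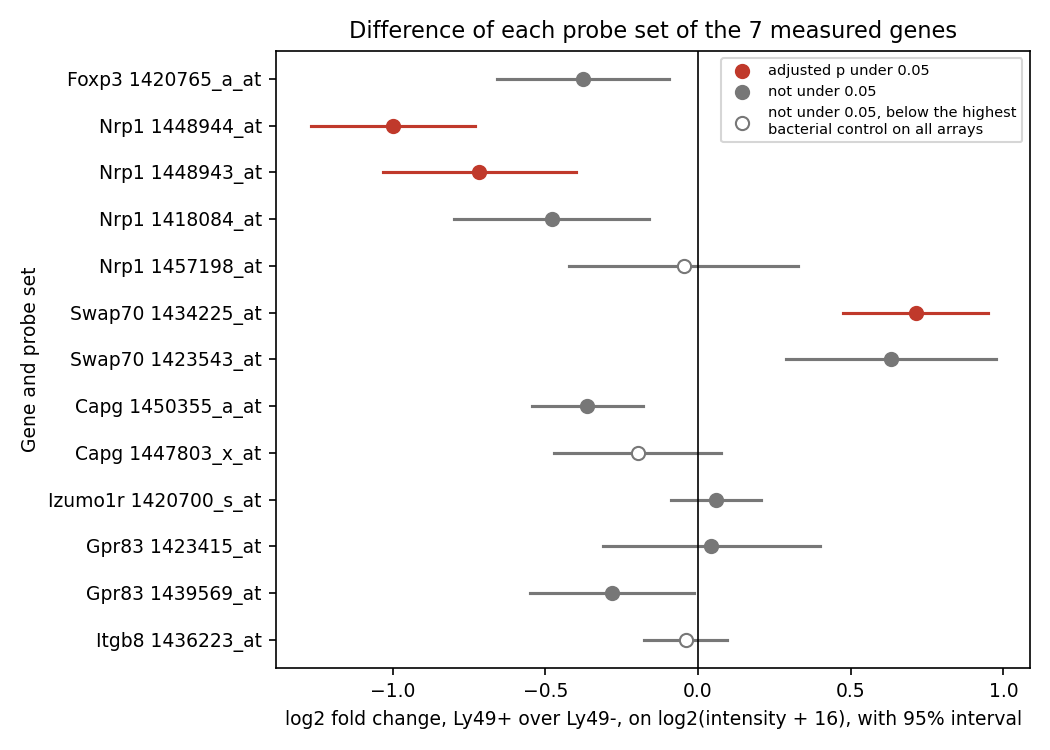
Log2 fold change (Ly49+ over Ly49-) of each of the 13 probe sets, with its 95% interval, from the limma fit of all probe sets. The 2 brightest Nrp1 probe sets (-0.9997 and -0.72) and the brighter Swap70 probe set (0.71) pass the threshold; open circles mark the 3 probe sets below the bacterial control on all arrays.

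Most marker genes of macrophages and monocytes moved in the same direction as Swap70. Of 13 measured macrophage and monocyte markers, 11 were higher in Ly49+ cells and none was lower, where 1.93% of all genes were higher. The median log2 fold change of the 13 markers was 0.64. Their summed intensity was 26590 and 29851 in Ly49+ cells, against 17774 and 17688 in Ly49- cells, and Itgam was below the bacterial control on all arrays. Lyz2, the lysozyme of myeloid cells, read 1129 and 1051 in Ly49+ cells, against 502 and 477 in Ly49- cells (log2 fold change 1.13, limma adjusted p = 2.75e-04). The genes with profiles most like that of Swap70 were Tlr3, Ms4a7 and Lpl, with root mean square differences of 0.020, 0.020 and 0.025. Tlr3 encodes a sensor of double-stranded RNA, Ms4a7 a membrane protein and Lpl lipoprotein lipase, and their log2 fold changes were 0.70, 0.68 and 0.68 (limma adjusted p of 0.00326, 0.0111 and 0.0113). All 3 calls were lost when either Ly49- array was dropped (adjusted p between 0.0502 and 0.113), and Ms4a7 and Lpl when Ly49+ replicate 2 was dropped (0.0958 and 0.104) or with the mean of probe sets (log2 fold change 0.36 and 0.41, adjusted p 0.0808 and 0.109).

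Of 9 measured B-cell markers, Cd22 was higher (log2 fold change 1.05) and Cd79b lower (-0.28), 7 did not pass and the median was 0.15. The summed intensity was 18533 and 19784 in Ly49+ cells, against 18656 and 19650 in Ly49- cells. Most of that sum was Ighm alone, at 13508 and 14523 in Ly49+ cells, against 14415 and 15442 in Ly49- cells. The sum therefore says little about the other B-cell genes. Ms4a1 (0.44), Cd79a (0.28) and Blnk (0.25) were higher without overlap but did not pass, and Ighm stood at -0.09. Of all probe sets, 46.6% had no overlap in either direction. Cd79b was lost with any 1 array dropped (limma adjusted p of at least 0.125). In that list Pax5 and Fcer2a were below the bacterial control on all arrays. Of 10 dendritic-cell markers, Xcr1 was higher (0.95), Bst2 lower (-0.32) and 8 did not pass. Bst2 was lost with any 1 array dropped (limma adjusted p of at least 0.0765) and Xcr1 when Ly49- replicate 1 (0.0532) or Ly49- replicate 2 (0.0728) was dropped. The summed intensity of the 10 dendritic-cell markers was 6917 and 7296 in Ly49+ cells, against 7695 and 7607 in Ly49- cells. Cd209a was below the bacterial control on all arrays. Bst2 was the brightest of the list, at 2797 and 2866 in Ly49+ cells, against 3489 and 3569 in Ly49- cells. The median log2 fold change of the list was 0.21, so the sum and the median went opposite ways. Of 7 NK-cell markers 5 were higher, among them Klra8, which encodes a receptor of the Ly49 family used in the sort. The summed NK-cell intensity was 22152 and 21808 in Ly49+ cells, against 14043 and 14277 in Ly49- cells, and Ncr1 was below the bacterial control on all arrays. The sort fixes the difference in Klra8, and without it 4 of 6 were higher and the sum was 18195 and 18407 in Ly49+ cells, against 13499 and 13715 in Ly49- cells. None of the 5 platelet, 6 endothelial and 4 erythroid markers measured passed. Whether these markers were read from other cells or from the CD8 cells themselves was not tested. Nor was any part of other cells in the Swap70, Nrp1 and Capg results.

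**Figure D3:**
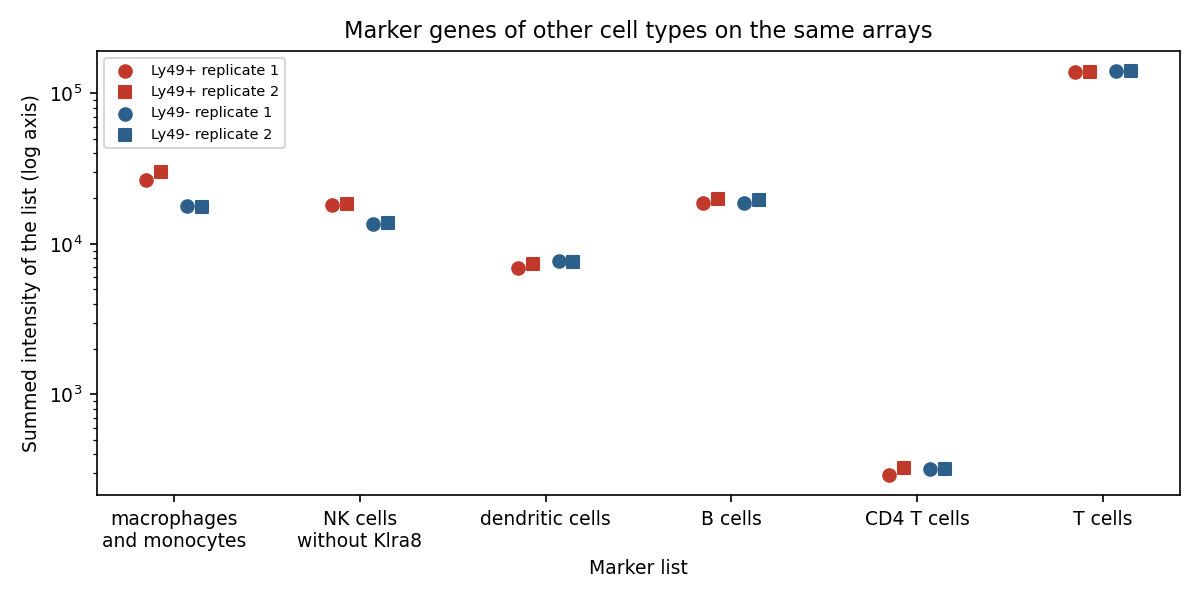
Summed intensity (log axis) of 6 marker lists on the 2 Ly49+ arrays (red) and the 2 Ly49- arrays (blue). Most of the NK-cell sum without Klra8 is Eomes and Cd160. The macrophage and monocyte sum is 26590 and 29851 in Ly49+ cells against 17774 and 17688 in Ly49- cells, the NK-cell sum without Klra8 (18195 and 18407 against 13499 and 13715) differs in the same direction, and the T-cell sums of the groups differ by little on this scale.

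Izumo1r (chromosome 9, 14885814 to 14903951) read at a similar level in both groups. Probe set 1420700_s_at, of a kind open to related transcripts, read 1580.4 and 1618 in Ly49+ cells, against 1521 and 1546 in Ly49- cells. The Ly49+ values were slightly higher without overlap, where 46.6% of all probe sets had no overlap in either direction. The log2 fold change was 0.06 ± 0.06 (SE), with a 95% interval from -0.08 to 0.20 (limma adjusted p = 0.684). The signal was 21.7 to 26.7 times the bacterial control and above every non-lymphoid tissue probe set on all 4 arrays. Of its folate receptor relatives, Folr1 was below the bacterial control on all arrays, and Folr2 differed by 0.04 (adjusted p = 0.906).

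Gpr83 (chromosome 9, 14859880 to 14870789) was close to the level without target, and its 2 probe sets differed in sign. Probe set 1423415_at read 73.5 and 104 in Ly49+ cells, against 78.3 and 91.0 in Ly49- cells, and these ranges overlapped (log2 fold change 0.04, 95% interval -0.30 to 0.38, limma adjusted p = 0.920). Probe set 1439569_at read 78.3 and 70.5 in Ly49+ cells, against 86.7 and 101 in Ly49- cells (-0.28, adjusted p = 0.305 in the fit of all probe sets). All values lay between 1.11 and 1.71 times the bacterial control of their array, so neither direction is given for this gene.

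Itgb8 (chromosome 12, 119162803 to 119238276) was read by 1 probe set, 1436223_at, at 11.4 and 11.9 in Ly49+ cells, against 11.6 and 13.3 in Ly49- cells. This was at most 0.200 times the highest bacterial control of the same array, and on 3 of the 4 arrays all 43 non-lymphoid tissue probe sets were brighter. Integrin beta-8 RNA was thus not detected in either group by this probe set, and no fold is given. Its partner chain gene Itgav was measured at 4773 and 5390.5 in Ly49+ cells, against 4918 and 4863 in Ly49- cells (log2 fold change 0.05, limma adjusted p = 0.716). Tgfb1, the cytokine that the Lrrc32 and Itgb8 proteins hold and release, differed by -0.11 (adjusted p = 0.660).

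Of 15 measured genes of TGF-beta, its latent storage and activation, and its receptors, 1 was higher and 1 lower, with a median of -0.04. Of all genes, 1.93% were higher and 2.07% lower. Tgfbr3, the co-receptor betaglycan, read 634 and 740.2 in Ly49+ cells, against 1207 and 1244 in Ly49- cells (log2 fold change -0.82, limma adjusted p = 0.00228). With Ly49- replicate 1 or 2 dropped its adjusted p was 0.0535 or 0.0685, and averaged over its probe sets the log2 fold change was -0.49 (0.0289). Ltbp2, of the latent TGF-beta binding protein family, was called higher (adjusted p = 0.0285), but all its values lay below the bacterial control, so no size is given, and the call was lost with any 1 array dropped (at least 0.0571) and with no trend (0.0797). Nrros, which like GARP holds latent TGF-beta on myeloid cells, differed by -0.14 (adjusted p = 0.176), and Tgfb2 by -0.22 (0.314). Of 20 measured relatives of the 8 genes, Nrp2 was higher, Gsn and the integrin genes Itgb3 (log2 fold change -0.39) and Itgb7 (-0.20) were lower, and 16 did not pass, with limma adjusted p of 0.00466 for Itgb3 and 0.0405 for Itgb7. Itgb3 was lost when Ly49+ replicate 2 (0.0561), Ly49- replicate 1 (0.0540) or Ly49- replicate 2 (0.0728) was dropped or with the mean of probe sets (0.0671). Itgb7 was lost with any 1 array dropped (at least 0.0592), and under 4 other settings, where its adjusted p ran from 0.0504 to 0.234.

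Across the 13 probe sets, 10 read above the highest bacterial control on all 4 arrays and 3 on none. On single arrays, 65.4% to 67.8% of all probe sets other than controls read above it. Groups did not overlap in 10 of the 13, where 46.6% of all probe sets had no overlap, and 7 of those 10 were lower in Ly49+ cells, where 31.6% of all probe sets were lower without overlap. In the fit of all probe sets, 3 of the 13 passed, where 2.14% of all 34945 probe sets passed: 2 of Nrp1 and 1 of Swap70. The genes that moved differed in direction, so the 7 measured genes did not shift as 1 group.

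In a wider list of 29 other CD4 Treg genes, 26 were measured: 2 rose in Ly49+ cells, 3 fell and 21 missed the threshold. The median log2 fold change was -0.08. Over all genes measured, 1.93% were higher and 2.07% lower. Ikzf2, which encodes Helios, rose 4.04-fold, at 5529 and 5469 in Ly49+ cells, against 1443 and 1258 in Ly49- cells (limma adjusted p = 2.30e-06). Cd83, an activation marker of lymphocytes and dendritic cells, rose 1.66-fold, at 2114 and 2196 in Ly49+ cells, against 1275 and 1305 in Ly49- cells (adjusted p = 5.52e-04). The inhibitory receptor genes Klrg1 (log2 fold change -1.92), Ctla4 (-1.44) and Lag3 (-0.71) fell, with adjusted p of 0.00443, 0.0181 and 0.00889. Ctla4 read 1276 and 741 in Ly49+ cells, against 3395 and 2084 in Ly49- cells, and replicate 1 was the higher array in both groups, with no overlap between the groups. Klrg1 read 114 and 189 in Ly49+ cells, against 467 and 772 in Ly49- cells, and replicate 2 was the higher in both.

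Further genes of that list showed no rise past the threshold. Il2ra, the high-affinity interleukin-2 receptor chain of Treg cells, read 126 and 129 in Ly49+ cells, against 100.4 and 121 in Ly49- cells (log2 fold change 0.18, 95% interval -0.09 to 0.46, limma adjusted p = 0.477). Il10, Ccr4 and Ccr8 were below the bacterial control on all arrays. Of the 5 that passed, Ikzf2 and Cd83 passed without any 1 array. With Ly49- replicate 2 dropped the limma adjusted p was 0.0919 for Klrg1, 0.0810 for Ctla4 and 0.116 for Lag3. With Ly49- replicate 1 dropped it was 0.152 for Ctla4 and 0.0808 for Lag3. Dropping Ly49+ replicate 2 gave 0.0745 for Ctla4, and dropping Ly49+ replicate 1 gave 0.0701 for Lag3. With all arrays, the adjusted p of Ctla4 was 0.120 with no trend and 0.360 with a robust spread, and that of Klrg1 0.0510 and 0.144.

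**Figure D4:**
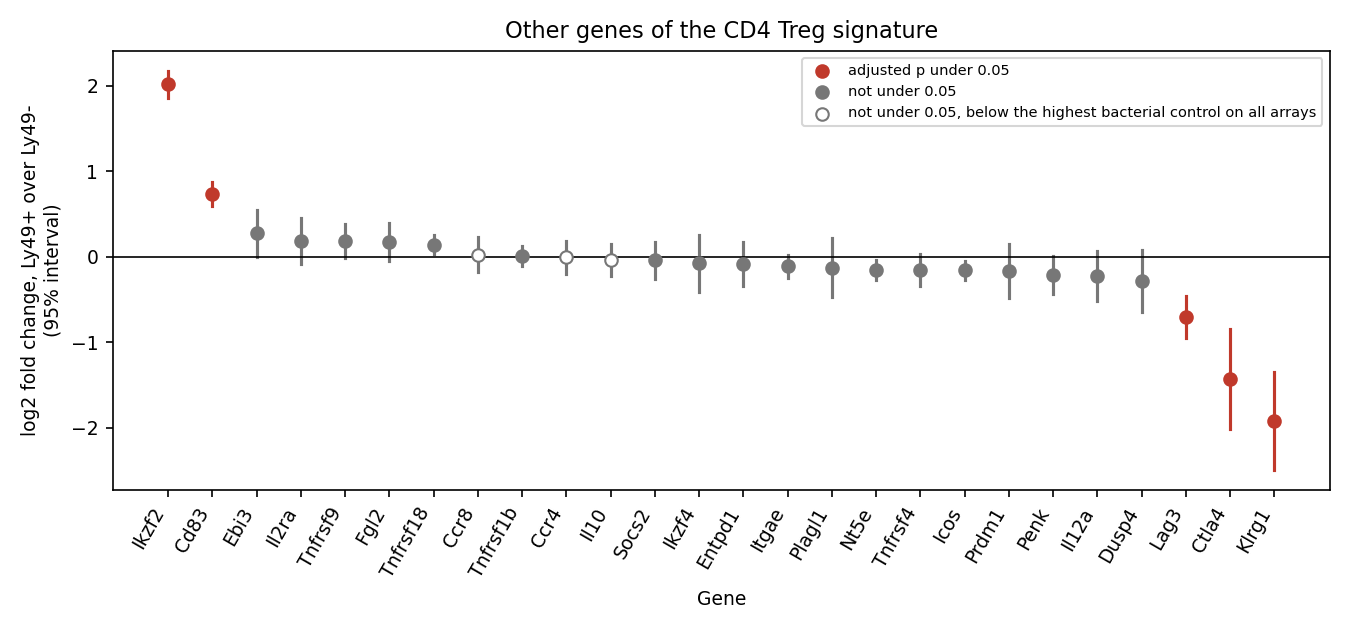
Log2 fold change (Ly49+ over Ly49-) and 95% interval of the 26 other CD4 Treg genes measured, ordered by value. Ikzf2 and Cd83 pass upward, Lag3, Ctla4 and Klrg1 downward, and the 21 others lie between -0.28 and 0.27.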

How the data were processed

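The authors deposited 1 intensity per probe set and array, taken as linear because values ran from 8.32 to 43959. Their distributions were nearly equal between arrays. The method behind this and any background correction are not given in the sources used here. Per the labels' protocols, total RNA was purified on RNeasy columns, and biotin-labelled cRNA was made for Affymetrix arrays. Groups and replicate numbers came from the titles.

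Probe sets were named by the platform annotation of August 2016. Of 45101 probe sets, 34945 had 1 gene symbol and 64 were controls. The probe set with the highest mean log2 value stood for each of 18193 genes. This was chosen over the highest linear mean after both counts of called genes had been seen, to follow an earlier processing of these data. Intensities were taken as log2(intensity + 16) and fitted by limma (version 3.58.1, in R 4.3.3) with lmFit and eBayes, a trend of the spread and no term but the group, which left 2 residual degrees of freedom. Input was read with data.table (version 1.17.8). A second fit took each probe set on its own. The number of arrays limits the precision. The level without target was the highest of 27 bacterial control probe sets of the same array.

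The 8 genes, the other lists and the tests were chosen with earlier results of these data known. All probe sets of the 8 genes are named, with the genes past the threshold in each list of related genes, those with the smallest p up to 4, and the 3 genes most like Foxp3 and each called gene in profile. Further genes are named where they bear on a role, chosen after their values were seen. Alternatives were quantile normalization, pseudocounts of 1 and 64, brighter features alone, other choices of probe sets, no trend or a robust spread, a replicate block, each array left out, and the non-lymphoid tissue level as background. Promoter sequences are from RefSeq.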

Additional observations from a re-analysis of the deposited data

How the results depend on the processing

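The direction and call of Foxp3 (not passing) and Izumo1r (not passing) held under every alternative that gave a value (Izumo1r had none without the _s_at probe sets). Of the 18193 genes, 728 passed, and 371 did with no trend of the spread on the level, 1527 with the replicate number as a block, and 98 to 284 with 1 array left out. Taking the brightest probe set by its linear mean, an alternative added after seeing the data, gave 723 genes and the same calls for the 7 measured genes. Of the 7 measured genes 3 passed, against 0 to 2 with 1 array left out: Nrp1 and Swap70 when Ly49+ replicate 1 was dropped, Nrp1 when Ly49+ replicate 2 or Ly49- replicate 2 was dropped, and none when Ly49- replicate 1 was dropped. Of the 13 probe sets 3 passed, and 0 to 1 did with 1 array left out. With the replicate block 5 probe sets passed, adding 1423543_at of Swap70 and 1450355_a_at of Capg. The titles give only a shared number, and the deviations of same-numbered arrays from their group means correlated at 0.332 over 12486 genes. With the block the adjusted p of Ctla4 was 1.23e-09 and that of Klrg1 2.06e-08, where the no-trend and robust fits lost both calls. Of the CD4 Treg list 5 genes passed, against 3 with no trend, 3 with a robust spread and 2 to 4 with 1 array left out. The list of NK-cell markers without Klra8, added after seeing the data, had 4 called genes in place of 5. Above background lay 10 probe sets, against 6 with the 95th percentile of the non-lymphoid tissue probe sets and 3 with the highest of them (Capg, Izumo1r and the brighter Swap70 probe set). Signs turned for values near 0 that never passed. With 1 array left out, Gpr83 ran from -0.22 (in the gene fit; -0.17 for 1423415_at) to 0.25, Itgb8 from -0.083 to 0.0037, and 1457198_at of Nrp1 from -0.33 to 0.23. With the mean of its probe sets Gpr83 was at -0.12. Averaging all Nrp2 probe sets gave 0.11 for that gene. The cause of these shifts was not tested. These fits borrow the spread of the intact group for the array left alone.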
